A study of Mus musculus with 10 samples.

Results

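The 35 genes described here mark the resident macrophages of the brain: the microglia of the parenchyma and the macrophages of its borders (meninges, perivascular space and choroid plexus). They were chosen by name as a fixed list, with earlier results of these data known. All 35 were found among the 30935 genes of the count table and passed the filter on low counts, which kept 15488 genes. The libraries were 10 RNA sequencing samples of mouse cerebral cortex at postnatal day 8. 5 libraries carried the HAR.505 deletion of the Rbfox1 locus on both alleles (Rbfox1 ΔHAR.505/ΔHAR.505, replicates 1, 3, 5, 6 and 8), called knockout here, and 5 were of Rbfox1 +/+ mice (replicates 2, 4, 5, 6 and 7), called wild type. Each library is an independent biological sample, and the labels give neither strain nor sex.

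Microglia descend from yolk sac progenitors, settle in the brain before birth and are maintained by the receptor Csf1r, which binds the ligands Csf1 and Il34. Under resting conditions they carry a characteristic set of surface proteins, among them the fractalkine receptor Cx3cr1 and the purinergic receptor P2ry12, through which they sense signals of neurons and damaged cells. In the developing cortex they engulf synapses and dying cells, with the complement protein C1q and the receptor Trem2 among the parts of that machinery. Border macrophages share many of these genes but are marked by the mannose receptor Mrc1. The comparison asks whether transcripts of these cells differ in cortex that lacks HAR.505.

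In the knockout cortex the microglia and macrophage genes had log2 fold changes between -0.40 (Pf4) and 0.53 (Selplg), and none was called. 0 of the 35 members passed the edgeR quasi-likelihood test at a Benjamini-Hochberg adjusted p under 0.05, where 0.381% of all tested genes did (0.187% higher and 0.194% lower in the knockout). 2 members, Selplg and P2ry13, had an unadjusted p under 0.05, both with a higher mean in the knockout and none with a lower one. Among all tested genes 8.71% had such a p, 4.19% higher and 4.52% lower. With DESeq2, 1 member was called (Selplg), and with limma-voom 0 were. No member had knockout and wild-type libraries that did not overlap, a pattern found in 1.83% of tested genes (0.93% higher and 0.897% lower in the knockout). The median log2 fold change of the members, knockout over wild type, was 0.09, and the median of all tested genes was -0.0021. 26 of the 35 log2 fold changes were positive, and 49.1% of those of all tested genes were. Positive values were also most of those of other glia, with 9 of 10 oligodendrocyte lineage and 7 of 10 astrocyte markers. They were 9 of 15 for endothelial and mural, 8 of 14 for cortical neuron and 6 of 12 for meningeal fibroblast markers. For choroid plexus and striatal markers they were 0 of 12 and 1 of 12. In bulk tissue a different number of microglia and a different amount of RNA per microglial cell cannot be told apart.

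The direction counts of the members depended on which libraries were used. With any 1 library left out, 22 to 28 of the 35 log2 fold changes were positive, and the counts changed more when several were left out. Knockout replicates 3, 5 and 6 held little choroid plexus RNA: the summed level of 12 choroid plexus markers was 21.2, 22.1 and 26.2 CPM (counts of a gene per common library total, scaled by TMM factors) in them, 236 and 102 CPM in knockout replicates 1 and 8, and 254 to 321 CPM in the wild-type libraries. Most of the larger sums was a single gene, Ttr. It gave 200 and 80.6 CPM in knockout replicates 1 and 8 and 213 to 278 CPM in wild type. In knockout replicates 3, 5 and 6 Ttr was at 0, 0.490 and 5.07 CPM. The higher sum of knockout replicate 8 than of replicates 3, 5 and 6 thus rests largely on Ttr. Without those 3 libraries, with only replicates 1 and 8 left in the knockout, 12 of the 35 log2 fold changes were positive. The median was then -0.083 and 0 members passed the test. With the mean log2 CPM of the choroid plexus markers as a covariate 9 were positive and the median was -0.16, again with 0 members past the test. Every knockout sum of these markers lay below every wild-type sum, so that fit cannot separate genotype from choroid plexus content. What part the dissection of the cortex had in the member levels was not tested.

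Per kilobase of transcript, which allows levels of different genes to be set side by side, the best represented members over all 10 libraries were Laptm5 (18.8 CPM per kb), C1qa (16.9), P2ry12 (15.99), Csf1r (15.2) and Cx3cr1 (12.9). Laptm5 encodes a lysosomal membrane protein of blood-derived and myeloid cells. C1qc (11.0) and C1qb (10.6) followed, and the lysosomal protease Ctss stood at 9.01 CPM per kb. At the low end were the integrin subunit Itgb2 (0.515), the phosphatase Ptprc, also known as CD45 (0.820), and the lipopolysaccharide co-receptor Cd14 (1.013). Differences between neighbours in this order were not tested. Together the 35 genes took between 0.0474% and 0.0612% of the deposited counts of a library.

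**Figure D1:**
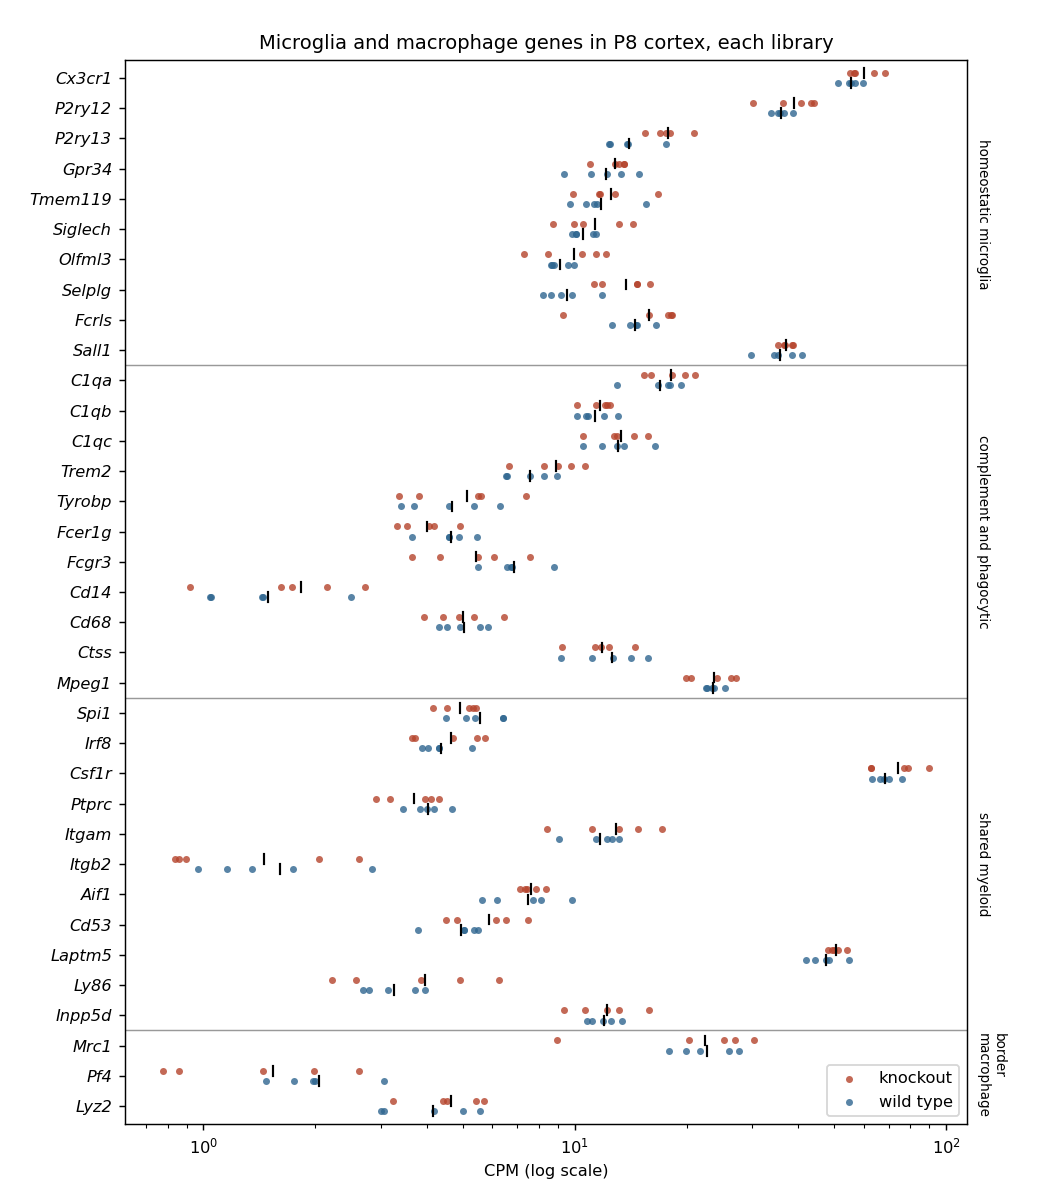
CPM of each member in each library, on a log axis, grouped by class, with knockout libraries in red above wild-type libraries in blue and a black bar at each mean (5 libraries each). The knockout and wild-type points of every member overlap, and Mrc1 and Pf4 spread over a wide range in the knockout.

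The identity of the cells was checked against markers of other blood cells. The defining microglial genes Cx3cr1, P2ry12 and Tmem119 were at 9.71 CPM or more in every library. Of 16 monocyte and neutrophil markers only 2 passed the filter, Csf3r (log2 fold change -0.11, SE 0.29) and S100a4 (0.06, SE 0.37). Ccr2, the chemokine receptor of circulating monocytes, was at 0.120 to 0.336 CPM in the knockout and 0 to 0.262 CPM in the wild-type libraries. The neutrophil genes Elane and Ly6g had 0 counts in all 10 libraries, where 3 counts would correspond to 0.135 to 0.184 CPM. Among 13 lymphocyte markers only the T-cell kinase gene Lck passed the filter (-0.31, SE 0.16).

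The homeostatic class holds 10 genes that mark resting microglia. All 10 had a positive log2 fold change, between 0.05 and 0.53, with a median of 0.12, and 0 passed the test. Their summed level was 230.4 ± 20.8 CPM in the knockout and 209 ± 11.0 CPM in wild type (SD, n = 5 each). Knockout replicates 3 and 6 held the highest sums of all 10 libraries, at 253 and 251 CPM, and knockout replicates 1, 5 and 8 (207, 218 and 222 CPM) lay inside the wild-type range of 196 to 223 CPM. The count of positive values was 9 or 10 of 10 with any 1 library left out. It was 6 of 10 without knockout replicates 3, 5 and 6 and 4 of 10 with the choroid plexus covariate.

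Selplg stood furthest from its wild-type level. It encodes the ligand of P-selectin (PSGL-1), a mucin-like protein of the surface of leukocytes that microglia also carry. The knockout libraries held 14.7, 14.7, 11.8, 15.9 and 11.3 CPM in replicate order, and the wild-type libraries 9.81, 9.18, 11.9, 8.23 and 8.65 CPM. 4 of the 5 wild-type libraries lay below every knockout library, and wild-type replicate 5 lay within the knockout range. The log2 fold change was 0.53 (SE 0.128), a fold of 1.44 with a 95% interval from 1.1995 to 1.73, and the adjusted p of 0.0660 in edgeR missed the threshold. It was positive in all 24 alternatives (among them the main fit read at another threshold), from 0.45 to 0.62, with adjusted p-values from 0.0112 to 0.9997. The gene was past the 0.05 threshold with no low-count filter (0.0112), in DESeq2 (0.0169) and in edgeR without knockout replicate 8 (0.0144) or 5 (0.0493), and without knockout replicates 3, 5 and 6 its log2 fold change was 0.45 (adjusted p = 0.501).

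P2ry13, a purinergic receptor for ADP that is a close relative and chromosomal neighbour of P2ry12, was the other member with an unadjusted p under 0.05. Its levels were 17.7, 20.9, 16.95, 18.1 and 15.5 CPM in the knockout and 13.8, 12.5, 13.9, 17.6 and 12.4 CPM in wild type. All libraries of the knockout were above 4 of the wild-type libraries, and wild-type replicate 6 fell inside their range. The log2 fold change of 0.34 (SE 0.112, edgeR adjusted p = 0.263) was 0.45 without wild-type replicate 6 and 0.24 without knockout replicates 3, 5 and 6, with adjusted p-values of 0.0819 and 0.813.

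P2ry12 itself, the receptor that guides microglial processes toward ADP and ATP, stood at 30.3, 40.7, 36.4, 44.1 and 43.2 CPM in the knockout and 33.7, 35.7, 38.7, 36.6 and 35.4 CPM in wild type. The knockout libraries lay on both sides of the narrow wild-type range (log2 fold change 0.11, SE 0.0833, adjusted p = 0.783). Relative to P2ry12, P2ry13 was at a ratio of 0.358 to 0.583 in the knockout and 0.349 to 0.480 in wild type.

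Cx3cr1, the receptor for the neuronal chemokine fractalkine and the member of this class with the highest CPM, was measured at 56.7, 68.6, 55.1, 64.1 and 56.4 CPM in the knockout. The wild-type libraries held 55.3, 56.7, 51.1, 59.6 and 54.7 CPM. Knockout replicates 3 and 6 exceeded all wild-type libraries and the other 3 lay among them, and the fitted log2 difference was 0.12 (SE 0.0662, adjusted p = 0.665). Set against Cx3cr1 of the same library, Selplg was at 0.200 to 0.260 in the knockout and 0.138 to 0.232 in wild type, and P2ry13 at 0.275 to 0.312 and 0.220 to 0.295. Both ratios overlapped between the genotypes.

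The remaining homeostatic members had log2 fold changes from 0.05 to 0.13, none past an unadjusted p of 0.05. Tmem119, a transmembrane protein used as a marker of microglia, averaged 12.5 ± 2.56 CPM in the knockout and 11.8 ± 2.24 CPM in wild type (SD, n = 5 each). The lectin Siglech (11.3 ± 2.33 and 10.5 ± 0.730 CPM) and the secreted protein Olfml3 (9.95 ± 2.04 and 9.13 ± 0.595 CPM) had wider spreads in the knockout libraries. Gpr34, a lysophosphatidylserine receptor, was at 12.8 ± 1.07 and 12.2 ± 2.12 CPM. Fcrls, an Fc receptor-like scavenger molecule of mouse microglia, averaged 15.9 ± 3.83 CPM in the knockout, where replicate 1 held 9.28 CPM and the others 15.8 to 18.2 CPM, and 14.5 ± 1.44 CPM in wild type. Without knockout replicate 1 its log2 fold change was 0.27, against 0.13 with all libraries, and the adjusted p was 0.463. The log2 fold change was highest, at 0.41, with a block for replicate number (unadjusted p = 0.0415, adjusted p = 0.9996). It was negative in 3 other alternatives: -0.55 with the choroid plexus covariate (unadjusted p = 0.00797, adjusted p = 0.748), -0.20 without knockout replicates 3, 5 and 6 (adjusted p = 0.912) and -0.12 when striatal marker levels were the covariate (adjusted p = 0.9997).

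Sall1, a transcription factor that upholds the microglial state and is also expressed by neural progenitors, stood at 37.1 ± 1.44 CPM in the knockout and 35.8 ± 4.20 CPM in wild type. It followed the other members least within this class, with a median r of 0.10 with the other 34 members over the 10 libraries, where the remaining 9 genes of the class had medians of 0.25 to 0.45.

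**Figure D2:**
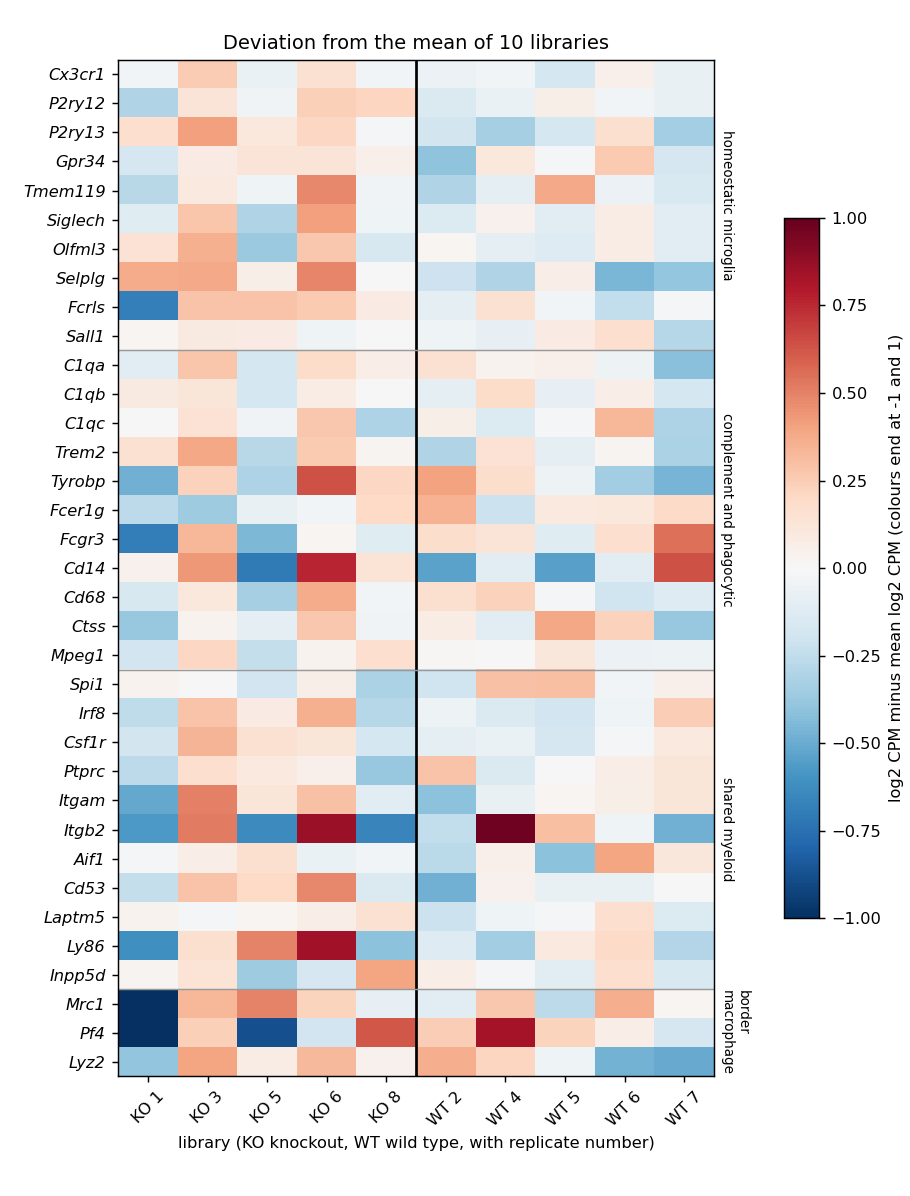
Each cell gives the log2 CPM of a member (rows, by class) in a library (columns, knockout left of wild type) minus the mean of that member over the 10 libraries. The columns of knockout replicates 3 and 6 are mostly red and that of knockout replicate 1 mostly blue, most deeply for Mrc1 and Pf4, while wild-type columns are paler.

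The class of complement and phagocytic genes had 7 of 11 positive log2 fold changes, a median of 0.02 and 0 members past the test. C1qa, C1qb and C1qc encode the 3 chains of C1q, which starts the classical complement cascade and tags synapses for removal. C1qa was at 16.05, 21.1, 15.4, 19.8 and 18.2 CPM in the knockout and 19.4, 17.9, 18.0, 16.8 and 13.03 CPM in wild type, and the fitted log2 difference was 0.09 (SE 0.112, adjusted p = 0.902). The C1qb values were 11.7 ± 0.932 and 11.4 ± 1.17 CPM, and those of C1qc 13.3 ± 1.98 and 13.1 ± 2.22 CPM, for knockout and wild type (SD, n = 5 each). The 95% intervals of the fold, knockout over wild type, were 0.910 to 1.25 for C1qa, 0.873 to 1.21 for C1qb and 0.848 to 1.21 for C1qc. The ratio of C1qa to C1qb was 1.55 ± 0.148 in the knockout and 1.503 ± 0.218 in wild type, and that of C1qc to C1qb 1.14 ± 0.153 and 1.16 ± 0.183 (SD, n = 5 each), so that both ratios differed between genotypes by less than their SD.

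Trem2, the receptor for lipids and cell debris, averaged 8.88 ± 1.51 CPM in the knockout and 7.58 ± 1.07 CPM in wild type (log2 fold change 0.23, SE 0.146, adjusted p = 0.719). Its signalling adaptor Tyrobp was at 5.12 ± 1.62 and 4.67 ± 1.19 CPM. Fc receptor genes lay on the other side of 0: Fcgr3, a low-affinity receptor for immunoglobulin G, had 3.65, 7.56, 4.35, 6.07 and 5.48 CPM in the knockout and 6.77, 6.55, 5.50, 6.75 and 8.80 CPM in wild type. Knockout replicate 3 was above 4 of the 5 wild-type libraries and knockout replicates 1, 5 and 8 were below all of them. The log2 fold change of Fcgr3 was -0.34 (SE 0.179, adjusted p = 0.625), and -0.49 without knockout replicate 3. It was -0.59 without knockout replicates 3, 5 and 6 (adjusted p = 0.557), -0.83 with the choroid plexus covariate (unadjusted p = 0.0119, adjusted p = 0.7996) and -0.87 with the striatal covariate (unadjusted p = 0.00731, adjusted p = 0.9997). The covariate fits cannot fully separate genotype from tissue content. Without knockout replicate 1 or wild-type replicate 7 the log2 fold change of Fcgr3 was -0.23 (adjusted p = 0.817 and 0.845). With a block for replicate number it was -0.24 (adjusted p = 0.9996), and without knockout replicate 5 it was -0.27 (adjusted p = 0.722). For Fcer1g, the signalling chain shared by several Fc receptors, the value was -0.21 (SE 0.182), with 3.997 ± 0.628 and 4.63 ± 0.654 CPM. Fcgr3 shares sequence with other Fc gamma receptor genes, so its counts carry some uncertainty.

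Of the lysosomal and pore-forming members, Mpeg1, which encodes the pore-forming perforin-2 of macrophages, averaged 23.6 ± 3.28 CPM in the knockout and 23.6 ± 1.13 CPM in wild type. The late endosomal glycoprotein Cd68, widely used to stain phagocytic microglia, was at 5.01 ± 0.972 and 5.04 ± 0.658 CPM, and Ctss at 11.8 ± 1.92 and 12.6 ± 2.55 CPM. Their log2 fold changes were 0.01, 0.00 and -0.08, each smaller than its standard error. Cd14, at a mean of 30.7 counts per library, had the widest interval of this class, from a fold of 0.763 to 1.96.

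The 11 genes shared by microglia with other myeloid cells had 8 positive log2 fold changes, a median of 0.09 and 0 members past the test. Spi1 encodes PU.1, the transcription factor on which macrophage development depends. It was at 4.92 ± 0.556 CPM in the knockout and 5.56 ± 0.836 CPM in wild type (log2 fold change -0.17, SE 0.166, adjusted p = 0.860). Irf8, a transcription factor that acts together with PU.1, was at 4.65 ± 0.970 and 4.36 ± 0.551 CPM (0.09, SE 0.183). Csf1r, the growth factor receptor that microglia need to survive, was the member with the most counts. It was measured at 62.6, 89.9, 79.1, 77.3 and 62.9 CPM in the knockout and 66.3, 68.0, 63.2, 70.1 and 75.9 CPM in wild type. Knockout replicates 3, 5 and 6 exceeded every wild-type library and knockout replicates 1 and 8 lay below every one. Its log2 fold change was 0.11 (SE 0.0858, adjusted p = 0.800) and -0.13 without knockout replicates 3, 5 and 6 (adjusted p = 0.819). It was -0.24 with the choroid plexus covariate (unadjusted p = 0.0380, adjusted p = 0.9985) and -0.29 with the striatal covariate (unadjusted p = 0.0188, adjusted p = 0.9997). With a block for replicate number it was 0.23 (adjusted p = 0.9996).

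Itgam, which encodes the CD11b chain of complement receptor 3, was likewise highest in knockout replicate 3, with 8.44, 17.2, 13.2, 14.8 and 11.1 CPM in the knockout against 9.08 to 13.1 CPM in wild type (0.15, SE 0.15). In the GENCODE M21 annotation 74.2% of the Itgam transcript is shared with a second gene model on the same strand, and 18.6% of the Csf1r transcript is covered by a gene on the opposite strand, so that both counts may miss or mix reads. Itgb2, the partner chain of Itgam, had a mean of only 28.2 counts per library and varied by 48.9% (coefficient of variation over the 10 libraries), against 18.8% from counting alone. Ptprc was at 3.69 ± 0.612 and 4.02 ± 0.454 CPM and the tetraspanin Cd53 at 5.88 ± 1.23 and 4.93 ± 0.675 CPM. Aif1, which encodes the cytoskeletal protein IBA1 that is used to stain microglia, was at 7.62 ± 0.499 CPM in the knockout and 7.495 ± 1.67 CPM in wild type (0.02, SE 0.151). For Laptm5 the values were 50.6 ± 2.30 and 47.4 ± 4.82 CPM, for the lipid phosphatase Inpp5d 12.2 ± 2.48 and 11.96 ± 1.08 CPM, and for Ly86, a partner of a Toll-like receptor homologue, 3.96 ± 1.66 and 3.26 ± 0.557 CPM (SD, n = 5 each). None of these log2 fold changes exceeded 0.28.

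**Figure D3:**
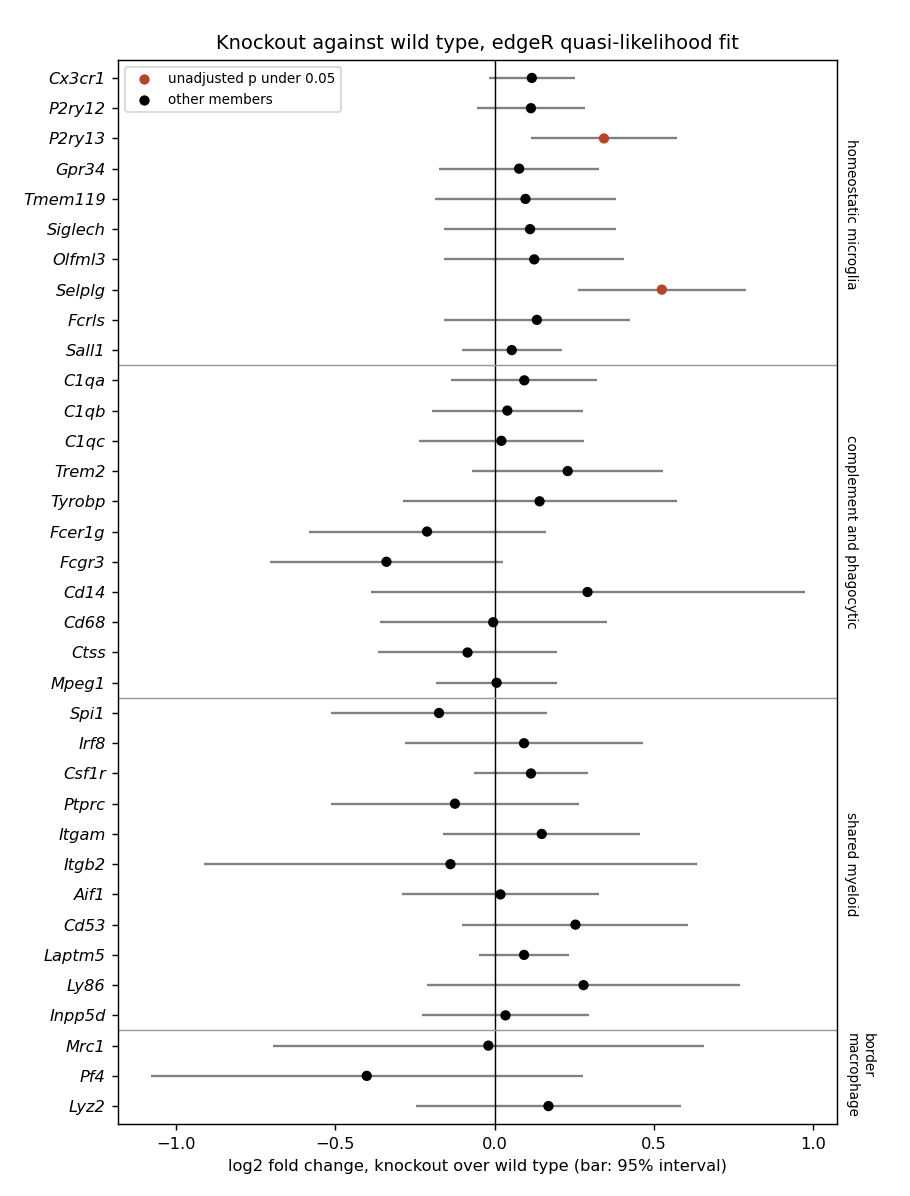
Log2 fold change of each member, knockout over wild type, with its 95% interval from the edgeR fit. Selplg and P2ry13, in red, are the 2 members whose interval excludes 0 (unadjusted p under 0.05), and neither passed the test after adjustment.

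PU.1 binds sites around the core GAGGAA, so the RefSeq promoter windows (250 bases before to 50 after a transcription start, build GRCm38.p6) were read for it. 26 of the 35 members matched a symbol of that table, with 31 windows. The longer site GAGGAAGT, searched on both strands, was found in 5 of the 26 genes (19.2%), against 3.69% of all 27025 genes with a window. The core GAGGAA, which lies within the longer site, was in 17 of the 26 (65.4%) against 31.3%. The composite ETS-IRF site, at which PU.1 binds beside an interferon regulatory factor, was in 1 of the 26 (3.85%) against 3.16%. A match describes letters and is not evidence of binding. The 5 windows with the longer site are shown because they come from genes of different classes, the myeloid Inpp5d and Cd53, the phagocytic Ctss and C1qc, and the border macrophage gene Pf4. The site began 20 bases before the start in Inpp5d, 10 before it in Pf4, 195 before it in C1qc and 2 before it in Ctss, where it spans the start. In Cd53 it began 6 bases after the start. C1qb and P2ry13, which held the short core alone, follow for comparison with C1qc and as a member with an unadjusted p under 0.05. Capitals mark GAGGAA and GAGGAAGT on either strand. The windows were chr1:87620062-87620361 (plus strand) for Inpp5d, chr3:95526536-95526835 (plus strand) for Ctss, chr3:106790100-106790399 (minus strand) for Cd53, chr4:136892865-136893164 (minus strand) for C1qc, chr5:90772185-90772484 (plus strand) for Pf4, chr4:136886151-136886450 (minus strand) for C1qb and chr3:59210833-59211132 (minus strand) for P2ry13.
Inpp5d: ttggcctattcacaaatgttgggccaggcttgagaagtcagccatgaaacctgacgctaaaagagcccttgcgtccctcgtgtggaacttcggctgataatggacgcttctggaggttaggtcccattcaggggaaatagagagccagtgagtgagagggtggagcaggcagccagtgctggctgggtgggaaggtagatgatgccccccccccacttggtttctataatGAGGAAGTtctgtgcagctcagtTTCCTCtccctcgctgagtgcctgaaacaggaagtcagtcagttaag
Ctss: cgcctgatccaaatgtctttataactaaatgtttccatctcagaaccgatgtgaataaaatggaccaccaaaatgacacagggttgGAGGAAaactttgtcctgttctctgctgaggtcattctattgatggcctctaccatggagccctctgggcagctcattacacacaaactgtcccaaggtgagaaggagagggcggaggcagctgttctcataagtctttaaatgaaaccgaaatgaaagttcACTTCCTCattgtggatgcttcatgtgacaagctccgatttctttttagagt
Cd53: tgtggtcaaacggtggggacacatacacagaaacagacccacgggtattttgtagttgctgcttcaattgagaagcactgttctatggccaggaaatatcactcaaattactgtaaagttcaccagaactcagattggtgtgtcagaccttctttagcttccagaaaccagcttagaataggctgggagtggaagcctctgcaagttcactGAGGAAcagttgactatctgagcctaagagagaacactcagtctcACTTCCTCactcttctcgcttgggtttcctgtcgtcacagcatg
C1qc: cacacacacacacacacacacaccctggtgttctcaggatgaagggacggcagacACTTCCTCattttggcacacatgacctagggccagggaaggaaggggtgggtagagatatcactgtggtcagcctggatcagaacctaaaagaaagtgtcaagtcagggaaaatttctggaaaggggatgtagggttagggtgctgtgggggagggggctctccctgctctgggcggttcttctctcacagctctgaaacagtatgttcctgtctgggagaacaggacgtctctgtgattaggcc
Pf4: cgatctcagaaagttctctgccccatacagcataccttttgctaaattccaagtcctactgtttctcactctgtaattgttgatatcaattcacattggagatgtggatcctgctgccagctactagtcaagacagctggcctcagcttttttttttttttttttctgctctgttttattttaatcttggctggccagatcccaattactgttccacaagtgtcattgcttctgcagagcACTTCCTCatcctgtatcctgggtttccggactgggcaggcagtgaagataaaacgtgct
C1qb: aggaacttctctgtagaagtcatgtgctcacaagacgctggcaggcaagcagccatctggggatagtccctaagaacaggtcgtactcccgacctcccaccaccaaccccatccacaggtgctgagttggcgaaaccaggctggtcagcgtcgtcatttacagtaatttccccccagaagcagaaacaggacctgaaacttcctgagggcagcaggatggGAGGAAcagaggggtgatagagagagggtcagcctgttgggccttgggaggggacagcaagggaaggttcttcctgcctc
P2ry13: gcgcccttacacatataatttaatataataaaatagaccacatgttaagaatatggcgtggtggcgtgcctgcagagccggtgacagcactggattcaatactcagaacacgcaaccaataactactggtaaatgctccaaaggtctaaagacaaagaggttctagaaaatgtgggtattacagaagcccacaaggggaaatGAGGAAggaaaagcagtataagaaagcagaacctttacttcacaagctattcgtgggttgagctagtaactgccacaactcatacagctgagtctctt

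None of the 3 border macrophage members passed the test, and their median log2 fold change was -0.02. Mrc1 varied by 27.5% over the 10 libraries, against 4.90% from counting alone, while Mpeg1, counted about as deeply, varied by 9.81%. Mrc1, the mannose receptor of perivascular and meningeal macrophages, was at 8.98, 27.1, 30.4, 25.2 and 20.4 CPM in the knockout and 19.9, 26.0, 17.9, 27.7 and 21.8 CPM in wild type. Knockout replicate 1 was below every other library, and knockout replicate 5 above every other. The log2 fold change was -0.02 (SE 0.295, adjusted p = 0.995), 0.18 without knockout replicate 1 and -0.62 without knockout replicates 3, 5 and 6. With a block for replicate number it was 0.30 (adjusted p = 0.9996). Pf4, a chemokine of platelets and border macrophages, was at 0.778, 1.99, 0.857, 1.45 and 2.63 CPM in the knockout and 1.99, 3.06, 1.97, 1.75 and 1.48 CPM in wild type, a log2 fold change of -0.40 (SE 0.331) at a mean of 33.3 counts per library. Lyz2, the lysozyme of macrophages, had 4.65 ± 0.964 and 4.16 ± 1.14 CPM (SD, n = 5 each, 0.17, SE 0.204). Lyz2 has a near-identical neighbour, Lyz1, so that its reads may be split between them.

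The class sum was 12.99 CPM in knockout replicate 1, 27.4 to 35.7 CPM in the other 4 knockout libraries and 24.03 to 34.04 CPM in wild type. The border members made up 2.72% of the summed member CPM in knockout replicate 1 and 4.66% to 6.72% in the other 9 libraries. Knockout replicate 1 also held the lowest summed level of 12 meningeal fibroblast markers, 961 CPM, next to 1005 CPM in knockout replicate 8, 1462 to 1563 CPM in knockout replicates 3, 5 and 6 and 1241 to 1378 CPM in wild type. The part of the meninges in the level of Mrc1 was not tested. With the choroid plexus covariate the log2 fold change of Mrc1 was -1.19 (unadjusted p = 0.000164, adjusted p = 0.362). That fit cannot separate genotype from choroid plexus content.

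**Figure D4:**
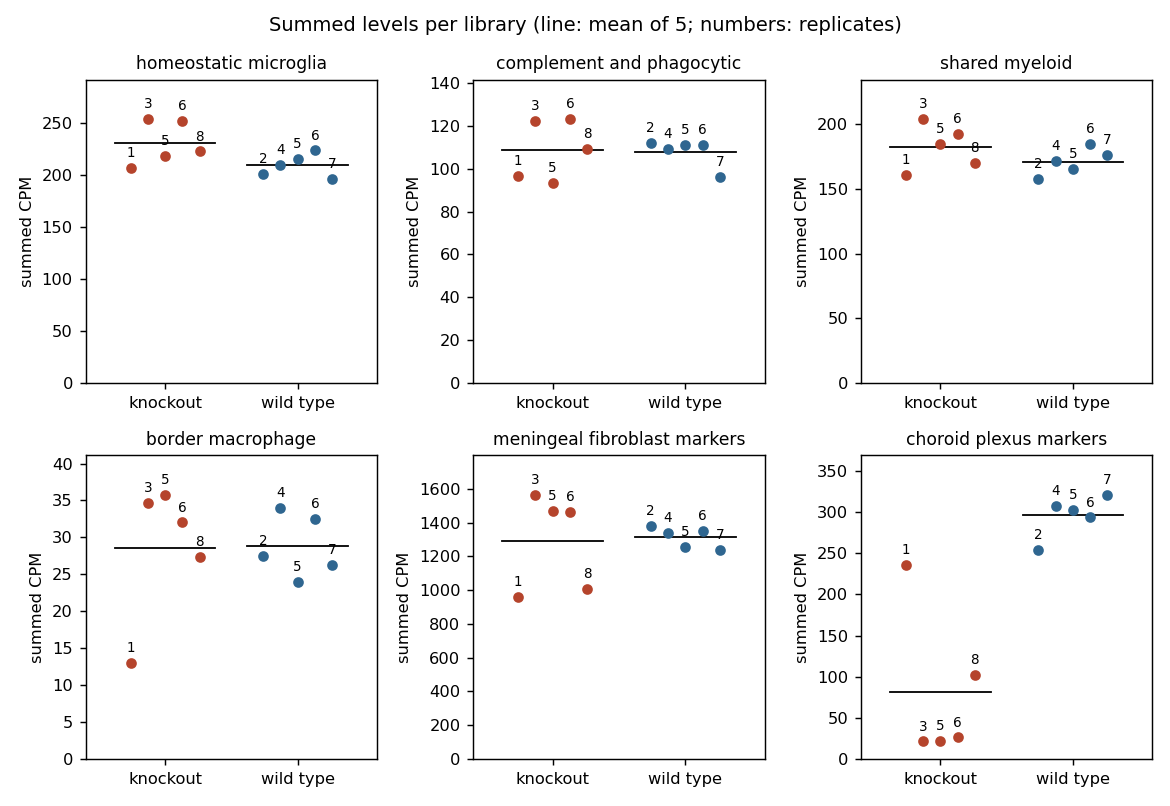
Summed CPM of the 4 member classes and of meningeal fibroblast and choroid plexus markers in each library, knockout left of wild type, with the replicate number above each point and a line at the mean of 5. Knockout replicate 1 is lowest for border macrophage genes (12.99 CPM), and knockout replicates 3, 5 and 6 combine the highest meningeal sums with the lowest choroid plexus sums.

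Libraries high for 1 member tended to be high for others. Knockout replicate 6 was the highest of the 10 libraries for 10 members and knockout replicate 3 for 9, each with a median rank of 9 of 10 over the 35 genes. Knockout replicate 1 was lowest for 9 members, wild-type replicate 7 for 7 and knockout replicate 5, with a median rank of 4, for 6. Of the 595 pairs of members, 79.7% had a positive Pearson r of log2 CPM over the 10 libraries and 21.8% an r above 0.5, against 49.9% and 8.00% of all pairs of tested genes. These pairs share the same libraries and are not independent. The median r was 0.40 among homeostatic members, 0.32 among complement and phagocytic members, 0.23 among shared myeloid members and 0.25 between homeostatic and border macrophage members. Fcer1g stood apart with a median r of -0.21 with the other members.

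12 pairs with a known relation were tested singly (permutation test, 100000 resamples, two-sided, n = 10 libraries). All 12 had a positive r, and 0 passed after Benjamini-Hochberg adjustment over the 12. Over all 10 libraries the largest r was that of C1qa and C1qb (r = 0.56, permutation p = 0.0950, adjusted 0.390, and rho = 0.44, permutation p = 0.204, adjusted 0.442). Without the 2 libraries farthest from the median of C1qa it was 0.18. C1qa and Cx3cr1 gave r = 0.55 (permutation p = 0.104, adjusted 0.390) and rho = 0.54 (permutation p = 0.113, adjusted 0.442), with r = 0.28 without 2 libraries. For Cx3cr1 and its ligand gene Cx3cl1 r was 0.49 (permutation p = 0.153, adjusted 0.390) and rho 0.33 (permutation p = 0.349, adjusted 0.442), with r = -0.01 without 2 libraries, and for Mrc1 and Cx3cr1 r was 0.33 (permutation p = 0.325, adjusted 0.390) and rho 0.39 (permutation p = 0.263, adjusted 0.442), with r = 0.36 without 2 libraries. Spi1 and Irf8 had the lowest r over all 10 libraries, 0.02 (permutation p = 0.948, adjusted 0.948, and rho = 0.15, permutation p = 0.683, adjusted 0.745), with r = -0.10 without 2 libraries. Mrc1 and Pf4 had r = 0.36 (permutation p = 0.311, adjusted 0.390) and rho = -0.01, with r = -0.45 without 2 libraries.

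**Figure D5:**
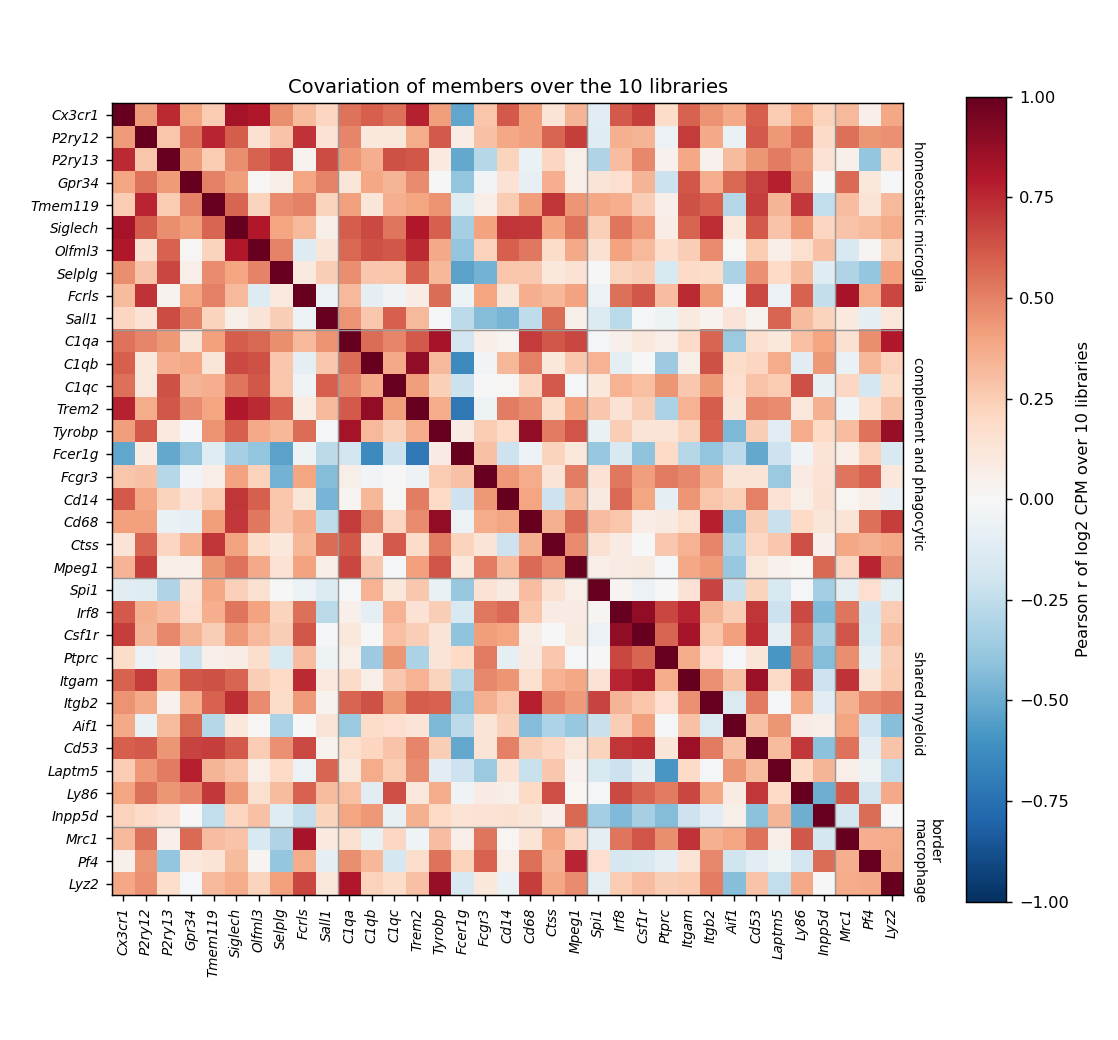
Pearson r of log2 CPM over the 10 libraries for every pair of members, ordered by class. Most cells are red, 79.7% of the 595 pairs being positive, and the row of Fcer1g is mostly blue.

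Genes around the members were read in the same fit. Among 24 tested genes of the signals that maintain and restrain microglia, 0 passed the test. 2 had an unadjusted p under 0.05, where 8.71% of all tested genes did, and these 2 encode ligands made by neurons. Il34, the Csf1r ligand of the forebrain, was at 34.7, 37.2, 31.8, 36.4 and 28.9 CPM in the knockout and 27.4, 29.7, 33.5, 26.4 and 29.8 CPM in wild type (log2 fold change 0.20, SE 0.0829, adjusted p = 0.430). Cx3cl1, which encodes fractalkine, was at 434 ± 28.5 and 399.6 ± 20.4 CPM (SD, n = 5 each, 0.12, SE 0.0496, adjusted p = 0.441). For the other Csf1r ligand, Csf1, it was -0.22 (SE 0.118, adjusted p = 0.625).

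Of 32 other microglia-enriched genes 0 passed the test and 0 had an unadjusted p under 0.05 in edgeR, with a median log2 fold change of 0.03. Mef2a (0.09, SE 0.0510), a transcription factor that neurons express too, and Dock2 (0.32, SE 0.194), a regulator of leukocyte migration, had the smallest p. Genes of the activated microglia that are seen in early postnatal white matter gave 13 tested members of 19, with 0 past the test and a median of -0.02. At an unadjusted p under 0.05, 0 were higher and 2 lower, against 4.19% and 4.52% of all tested genes. Spp1, which encodes osteopontin, averaged 1.62 ± 0.640 CPM in the knockout and 2.90 ± 0.786 CPM in wild type (-0.83, SE 0.290, adjusted p = 0.324), and the galectin gene Lgals3 0.843 ± 0.224 and 1.54 ± 0.443 CPM (-0.86, SE 0.352, adjusted p = 0.438). Gpnmb, Clec7a, Itgax, Cst7, Ccl3 and Ccl4 of that list had too few counts to be tested.

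Among 11 tested genes of border macrophages other than the members, 0 passed the test, with a median of -0.01. At an unadjusted p under 0.05, 0 were higher and 1 lower, against 4.19% and 4.52% of all tested genes. Ms4a7, a membrane protein of these macrophages, was at 0.561 ± 0.163 and 1.16 ± 0.362 CPM (-1.04, SE 0.395, adjusted p = 0.384). Siglec1, the sialoadhesin of tissue macrophages, had 0.120 CPM in knockout replicate 1, 0.663 to 1.23 CPM in the other knockout libraries and 1.02 to 1.71 CPM in wild type (-0.67, SE 0.409, adjusted p = 0.699). Knockout replicate 1 was lowest for Siglec1 as it was for Mrc1.

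Inflammatory, interferon and antigen presentation genes gave 12 tested members of 20 and 0 past the test, with a median of 0.03. At an unadjusted p under 0.05, 2 were higher and 0 lower, against 4.19% and 4.52% of all tested genes. The cytokine genes Il1b, Tnf and Il6 averaged 0.121, 0.112 and 0.0227 CPM over the 10 libraries and did not pass the filter. H2-Ab1, a chain of the class II antigen-presenting molecule, was at 1.48 ± 0.401 CPM in the knockout and 0.762 ± 0.278 CPM in wild type (0.94, SE 0.368, adjusted p = 0.408). The co-stimulatory gene Cd86 was at 0.958, 3.04, 2.02, 2.34 and 2.24 CPM in the knockout and 1.23 to 1.48 CPM in wild type (0.64, SE 0.309, adjusted p = 0.563). 4 of the 5 knockout libraries were above all wild-type ones for Cd86, and knockout replicate 1 was below them.

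Total counts ran from 16479594 to 22391943 per library. The labels do not say that the deletion reaches an exon of Rbfox1, so its level checks no genotype. It was 191 to 247 CPM in the knockout and 205 to 238 CPM in wild type (log2 fold change -0.06, adjusted p = 0.879). The summed levels of cortical neuron markers were 2372 to 2519 CPM in the knockout and 2277 to 2435 CPM in wild type, those of astrocyte markers 3616 to 4231 and 3440 to 3919 CPM, those of endothelial and mural markers 528 to 614 and 525 to 572 CPM, and those of erythroid markers 386 to 693 and 483 to 684 CPM. For striatal markers they were 206 to 269.8 CPM in the knockout and 259 to 411 CPM in wild type. Of the 59 genes past the test, 4 belonged to the marker lists of neighbouring tissue, namely Clic6 and Tmem72 of the choroid plexus and Six3 and Penk of the striatum, all lower in the knockout.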

How the data were processed

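RNA of P8 mouse cortex was extracted with a Qiagen kit, per the labels' protocols. The authors deposited whole-number counts per gene with Entrez identifiers, 1 column per library. The submitters' processing notes name HISAT2, featureCounts and the build mm39. No source used here gives their versions, the annotation or the strand setting, so reads of a gene and an antisense partner cannot be told apart.

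Symbols came from a RefSeq table of GRCm38.p6 (99.1% of identifiers matched). Libraries of a genotype differed by more than sampling noise (chi-square per degree of freedom 4.10 to 13.9), so each is 1 replicate. Counts were fitted in R 4.3.3 with edgeR 4.0.16 (filterByExpr, TMM, robust quasi-likelihood F test, genotype as sole term), two-sided, with Benjamini-Hochberg adjustment over all 15488 tested genes. Standard errors come from the F statistic. CPM use TMM-scaled totals, and log2 CPM a prior count of 2. Lengths are those of the longest principal transcript in GENCODE M21. Correlations used scipy 1.17.1. The fit was tested on simulated data.

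Members and lists were chosen with earlier results of these data known. The text names all members, and of other lists the first 2 to 4 genes by unadjusted p and any past the threshold, plus Rbfox1. Genes named from the lists outside that order (Ccr2, Elane, Ly6g, Il1b, Tnf, Il6, Ttr and the untested genes) were named for their role or count. Alternatives were other normalizations and filters, DESeq2 1.42.0, limma-voom (limma 3.58.1), non-robust dispersions, another threshold, leaving out libraries, a replicate block, and covariates for choroid plexus and striatal markers (mean log2 CPM) and for sex, read from Xist and Y-linked counts.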

Additional observations from a re-analysis of the deposited data

Results flagged for a closer look

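A value was singled out where 1 extreme library of a genotype was separated from its nearest neighbour by more than 0.71 of the range of the 5. Of 86 such groups tested, 5 met this, where about 1 in 20 would by chance. Knockout replicate 1 was lowest for Gpr34, at 11.0 CPM with the others at 12.9 to 13.6 CPM, and for Fcrls, at 9.28 CPM with the others at 15.8 to 18.2 CPM. Wild-type replicate 7 was highest for Cd14, at 2.49 CPM with the others at 1.04 to 1.45 CPM. It was also lowest for the summed complement and phagocytic genes, at 96.2 CPM with the others at 109 to 112 CPM. Wild-type replicate 2 was lowest for Cd53, at 3.78 CPM with the others at 5.04 to 5.48 CPM.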

How the results depend on the processing

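The number of genes past the threshold, 59, was 171 with no filter, 124 with DESeq2, 108 at an adjusted p under 0.1, 28 with the sex covariate, 12 without knockout replicates 3, 5 and 6, and 15 to 182 when 1 library was left out (17, 37 and 182 without knockout replicates 3, 6 and 8, and 15, 21 and 17 without wild-type replicates 2, 4 and 5). It was 0 with the choroid plexus covariate and 0 with the striatal covariate in edgeR, where 749 and 594 genes had an unadjusted p under 0.05. Levels of both marker lists were mostly lower in the knockout libraries, so these fits cannot fully separate genotype from tissue content. The number of members past the threshold, 0, was 1 with no filter, with DESeq2 and at an adjusted p under 0.1, and 0 to 1 when 1 library was left out (Selplg each time). With the choroid plexus covariate the median log2 fold change was -0.16 over all members, -0.064 in the homeostatic, -0.15 in the complement and phagocytic, -0.24 in the shared myeloid and -0.72 in the border macrophage class. The shared myeloid median was -0.25 with the striatal covariate, and without knockout replicates 3, 5 and 6 it was -0.23 and that of all members -0.083. The causes were not tested. Over 837 member values of the alternatives 88 changed sign, all without passing the threshold. The alternative at an adjusted p under 0.1 reuses the main fit, so its values among the 837 could not change sign. 6 members kept their sign in every alternative (P2ry13, Selplg, Trem2, Fcer1g, Fcgr3 and Spi1). With normalizations other than TMM 0 members changed sign. Only the numbers 5 and 6 occur in both genotypes, and no label ties them to a shared litter or day. Same-numbered libraries correlated at -0.030 and -0.057 in their deviations from the genotype means. With the replicate block, which rests on those 2 numbers, 27 genes and 0 members passed, and the member median was 0.059. For 9 members the 95% interval of the fold reached 1.5-fold in at least 1 direction (Cd14, Cd53, Fcgr3, Itgb2, Ly86, Lyz2, Mrc1, Pf4 and Selplg), at mean counts of 28.2 to 417 per library.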
